A study of Mus musculus with 24 samples.

Results

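Aminoacyl-tRNA synthetases attach each amino acid to the tRNA that reads its codon. Their genes were taken by symbol: a capital letter followed by ars and an optional 1 or 2, or Eprs, Eprs1, Farsa or Farsb, on probe sets annotated with exactly 1 gene. The rule found 35 of the 18193 genes on the array, 19 coding for cytosolic and 16 for mitochondrial enzymes. They lay on 72 of the 45037 probe sets tested, and 23 of the 35 had more than 1 probe set. Each gene was represented by the probe set with the highest mean over all 24 arrays, of which 12 were pull-down arrays. Gars and Kars each give rise to both a cytosolic and a mitochondrial enzyme and were counted as cytosolic.

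Cells keep separate synthetases for the cytosol and for mitochondria, all encoded in the nucleus. Several cytosolic ones (Eprs, Iars, Kars, Lars, Mars1, Qars and Rars among the genes measured) assemble with the scaffold proteins Aimp1, Aimp2 and Eef1e1 into the multisynthetase complex. When an amino acid runs short, uncharged tRNA activates the kinase encoded by Eif2ak4, phosphorylation of eIF2 raises the translation of ATF4, and ATF4 increases transcription of amino acid transporters, biosynthetic enzymes and many cytosolic synthetases.

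The mice were males of 12 weeks, give or take 1 week, killed 6 h after light onset. They had undergone 6 h of sleep deprivation by gentle handling, or undisturbed rest. Pull-down RNA of sleep-deprived mice (n = 6 arrays) and of controls (n = 6) was polyadenylated RNA that anti-FLAG beads had captured from formaldehyde-perfused brain. The labels assign it to cells expressing Homer1a, the short splice form of the postsynaptic scaffold Homer1 that neuronal activity induces. Supernatant RNA was what such pull-downs left (n = 4), and whole-brain RNA was unfixed total RNA of sleep-deprived (n = 4) and control (n = 4) mice. Of the 4 supernatants, 2 are labelled sleep-deprived, 1 control, and 1 is sleep-deprived by its title and control by its source. They formed 1 group, so this reference is not balanced over sleep states, whereas pull-down and whole brain were weighted equally over theirs. The labels give no strain and no promoter for the tag. They name an amplification for the captured RNA only. They do not tie arrays to single animals, so p-values measure the spread between these samples, which may be partly technical. In the extract comparisons this spread was pooled over all arrays, including those of the extract not compared. Values are log2 intensities, and a difference of 1 is a 2-fold difference in intensity.

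The pull-down arrays stood apart from the others. Their median log2 intensity ran from 4.37 to 5.7, against 6.1 to 6.22 in supernatant and 6.04 to 6.24 in whole brain. 18S ribosomal RNA, which lacks a poly(A) tail, ran from 6.83 to 11.1 in pull-down, with at least 13.8 on every other array. The excess of the 3′ over the 5′ probe set of Gapdh was 3.29 to 5.96 in pull-down, 2.31 to 2.59 in supernatant and 2.49 to 2.95 in whole brain. Against whole brain, all 8 microglial and all 8 endothelial markers were lower in pull-down, where 76.3% of all probe sets were lower and 8.06% higher. So were 6 of 7 oligodendrocyte and 6 of 8 astrocyte markers, while 1 astrocyte marker, Gfap, was higher (1.69). Of 10 neuronal markers, 3 were higher and 3 lower. The summed microglial signal ran from 10.04 to 11.07 in pull-down and from 11.6 to 12 in whole brain (log2 of the sum), and the neuronal one from 14.58 to 15.31 and from 14.94 to 15.05. Of the 6 probe sets of Homer1, 3 were higher in pull-down than whole brain (1.16 to 1.42) and 2 lower (-1.92 and -2.14). In bulk RNA, fewer cells of a type and less RNA per cell cannot be told apart. Without the 2 pull-down arrays with the most 18S, the counts of genes higher and lower were 8 and 23 against whole brain and 11 and 20 against supernatant. The shares of all probe sets called without these 2 arrays were not counted. The part of these array-wide differences in the synthetase results was not tested.

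ATF4 binds, with C/EBP partners, a composite element that was searched for as TGATGNAA or its reverse complement TTNCATCA, both on the strand of the gene and in windows from 250 bases before to 50 bases after the start site (RefSeq, mouse build GRCm38.p6). Windows were given for 26 of the 35 genes. The element stood in 5 of 12 cytosolic genes with a window (41.7%) and in 0 of 14 mitochondrial ones, against 3.97% of all 32851 windows. In a list of 26 amino acid genes known to be induced by ATF4, 9 of the 21 genes with a window held it (42.9%). The shares of the gene sets count genes, whereas the 3.97% counts windows. A match describes letters in a window and is no evidence of binding. The stretches below are shown because they hold the matches of those 5 genes, in capitals. Each is written 5′ to 3′ on the strand of its gene.
Aars, alanyl-tRNA synthetase, chr8:111033704-111033763, plus strand, match beginning 112 bases before the start site: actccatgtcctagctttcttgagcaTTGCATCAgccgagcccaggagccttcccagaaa
Aars, second match, chr8:111033840-111033869, plus strand, beginning at transcribed base 10: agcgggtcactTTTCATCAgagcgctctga
Gars, glycyl-tRNA synthetase, chr6:55037941-55038000, plus strand, beginning 30 bases before the start site: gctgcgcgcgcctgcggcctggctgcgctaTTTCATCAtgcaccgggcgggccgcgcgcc
Iars, isoleucyl-tRNA synthetase, chr13:49682126-49682155, plus strand, beginning at transcribed base 8: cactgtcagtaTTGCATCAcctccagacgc
Tars, threonyl-tRNA synthetase, chr15:11399659-11399718, minus strand, beginning 15 bases before the start site: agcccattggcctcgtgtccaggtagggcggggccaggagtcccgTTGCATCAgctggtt
Yars, tyrosyl-tRNA synthetase, chr4:129189895-129189924, plus strand, beginning at transcribed base 4: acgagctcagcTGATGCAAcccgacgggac
The search found the TTGCATCA form in Aars, Iars and Tars, the TTTCATCA form in Aars and Gars, and TGATGCAA in Yars.

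The first comparison set pull-down against whole brain, the step by which the study selected transcripts of the captured cells. At an adjusted p under 0.05 (limma, Benjamini-Hochberg over all probe sets), 8 synthetase genes were higher in pull-down and 22 were lower, and 5 did not pass (Nars, Qars, Iars2, Mars2 and Nars2, from -0.32 to 0.26). Over all probe sets, 8.06% were higher and 76.3% lower, 84.4% in either direction, with a median difference of -0.78. The cytosolic genes divided into 3 higher and 14 lower, with a median of -0.88, and the mitochondrial ones into 5 higher and 8 lower, with a median of -0.44. These directions depend on how arrays are scaled: 15 genes were higher and 11 lower after quantile normalization (32.3% and 26.2% of all probe sets), and 21 higher and 7 lower after each array was centred on its median (52% and 18.3%). Quantile normalization moved the median of all probe sets to 0.09 and centring moved it to 0.37. Called the same way under all 3 scalings were the 8 higher genes (Farsb, Hars, Iars, Fars2, Hars2, Lars2, Tars2 and Yars2) and 7 of the lower ones (Cars, Kars, Rars, Sars, Yars, Cars2 and Sars2). Because both rescalings moved the median of all probe sets upward, this agreement says little about the higher genes. The share of all probe sets called the same way under all 3 scalings was not counted. The 8 higher genes were read from probe sets chosen on a mean that includes the pull-down arrays, and 5 of them (Farsb, Fars2, Hars2, Lars2 and Tars2) were lower, by -0.96 to -2.42, on the probe set with the highest mean over the whole-brain and supernatant arrays. The latter choice in turn favours probe sets that are high in the references, so it cannot decide the direction. By catalytic class, 3 of 18 class I enzymes were higher and 12 lower, and 5 of 16 class II enzymes were higher and 9 lower. Within the multisynthetase complex 1 of 7 was higher and 5 were lower.

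**Figure D1:**
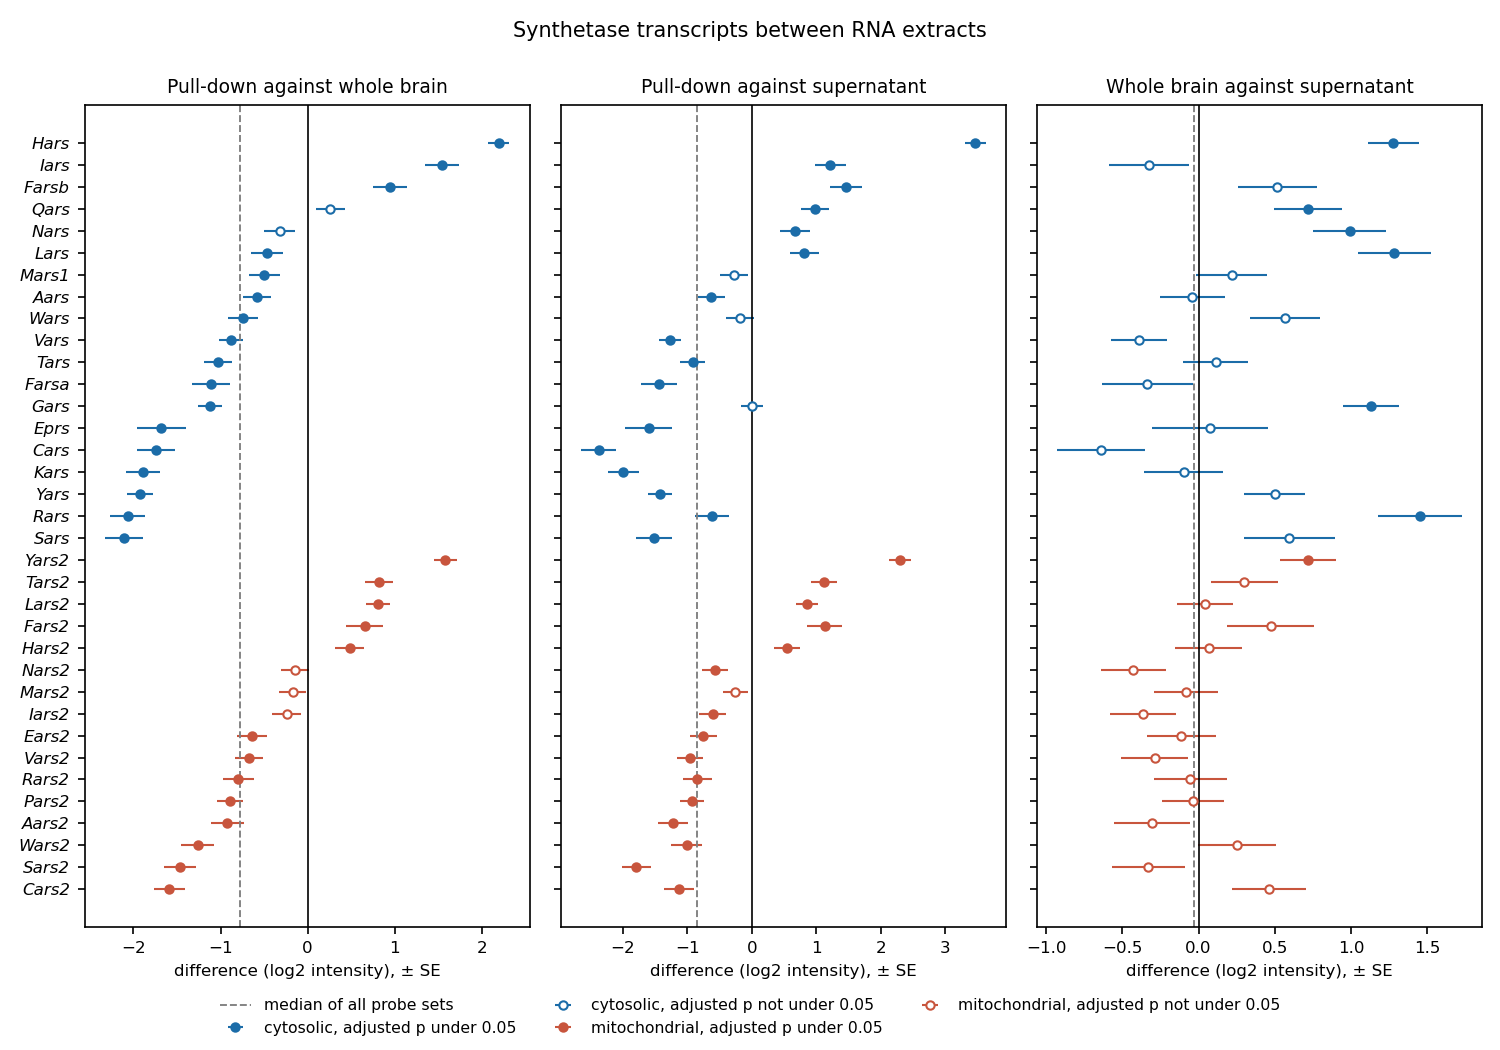
Difference in log2 intensity (horizontal axis, ± SE) of the 35 synthetase genes in 3 comparisons of RNA extracts on the deposited scale: pull-down against whole brain, pull-down against supernatant, and whole brain against supernatant. Blue points are cytosolic and red points mitochondrial genes, filled points passed an adjusted p of 0.05, and the dashed line is the median of all probe sets. Hars stands highest in both pull-down panels, at 2.19 and 3.47, and most genes lie below 0 there, although 13 of the 22 genes lower than whole brain turn positive after quantile normalization or centring.

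Hars, which codes for the cytosolic histidyl-tRNA synthetase, had the highest difference. Its log2 intensity in pull-down ran from 12.01 to 12.60 with a median of 12.24, and in whole brain from 9.77 to 10.29 with a median of 10.04. The groups did not overlap, and the difference was 2.19 ± 0.12 (SE; 4.57-fold; limma adjusted p = 6.99e-14). Yars2, the mitochondrial tyrosyl-tRNA synthetase, ran from 9.06 to 10.25 in pull-down, with a median of 9.83, and from 8.11 to 8.56 in whole brain, with a median of 8.20. That difference, again without overlap, was 1.58 ± 0.14 (limma adjusted p = 1.17e-10). Iars, for isoleucine, reached 11.09 in pull-down with a median of 10.70 and a lowest value of 9.15, and 8.75 to 9.40 in whole brain with a median of 8.91. One pull-down array lay within the whole-brain range, and the difference was 1.54 ± 0.19 (limma adjusted p = 7.52e-08).

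Farsb encodes the beta subunit of cytosolic phenylalanyl-tRNA synthetase. Its pull-down values spread from 7.84 to 9.62 around a median of 9.06, and its whole-brain values from 7.64 to 8.08 around a median of 8.0. The ranges overlapped, with 11 of 12 pull-down arrays above the whole-brain mean and a difference of 0.94 ± 0.19. Tars2, the mitochondrial threonyl-tRNA synthetase, ran from 7.10 to 8.33 in pull-down (median 7.54) and from 6.60 to 6.92 in whole brain (median 6.78), a difference of 0.82 ± 0.16 without overlap. The other 3 genes that were higher, Lars2 (0.81 ± 0.14), Fars2 (0.66 ± 0.21) and Hars2 (0.48 ± 0.16), charge mitochondrial leucine, phenylalanine and histidine tRNA. Over the 35 genes, 4 were higher and 9 lower with no overlap between extracts, where 3.35% and 27.5% of all probe sets were.

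At the lower end stood Sars, which loads serine in the cytosol. Its pull-down values ran from 7.32 to 9.71 with a median of 7.81, below the whole-brain range of 10.09 to 10.32 (median 10.18), a difference of -2.11 ± 0.22 (4.31-fold lower; limma adjusted p = 3.38e-09). Rars, the arginyl enzyme of the multisynthetase complex, lay between 4.80 and 6.99 in pull-down (median 6.01) and between 7.88 and 8.55 in whole brain (median 8.23), a difference of -2.07 ± 0.21. Yars, for tyrosine, ran from 4.52 to 5.79 (median 4.89) against 6.78 to 6.93 (median 6.83), a difference of -1.92 ± 0.15. Neither Rars nor Yars had overlapping extracts.

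Kars, which charges lysine tRNA in both compartments, had pull-down values of 4.17 to 5.99 (median 4.65) and whole-brain values of 6.56 to 6.88 (median 6.69). The extracts did not overlap and differed by -1.90 ± 0.19 (limma adjusted p = 2.18e-09). Cars, for cysteine, ran from 4.23 to 6.36 in pull-down (median 4.71) and from 6.24 to 7.16 in whole brain (median 6.63), differing by -1.74 ± 0.22 with 1 pull-down array inside the whole-brain range. That array was number 1 of the sleep-deprived pull-downs, the one with the second most 18S signal (11). On 8 of the 12 pull-down arrays Cars, and on 8 Kars, lay below the array's own median. All 5 genes stayed lower under quantile normalization and under centring: Sars by -1.76 and -0.95, Rars by -1.23 and -0.91, Yars by -0.85 and -0.77, Kars by -0.81 and -0.74, and Cars by -0.65 and -0.58.

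**Figure D2:**
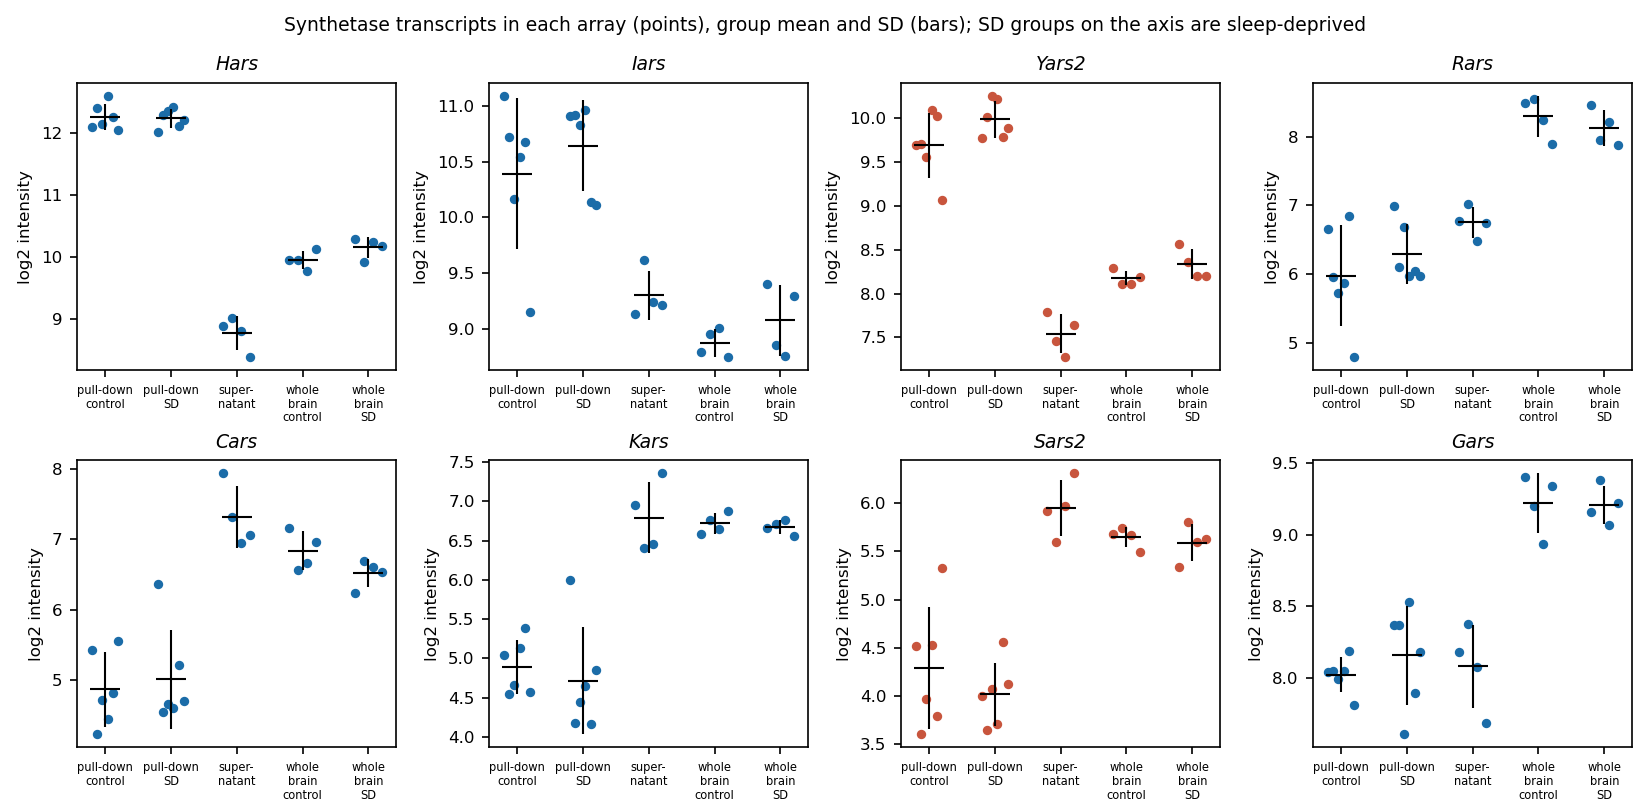
Log2 intensity (vertical axis) of 8 synthetase genes on each array, by group, with the group mean and standard deviation as black bars; blue genes are cytosolic and red ones mitochondrial, and groups marked SD on the horizontal axis are sleep-deprived. The 12 pull-down points of Hars lie between 12.01 and 12.60, above every other array, while those of Kars, Rars and Sars2 lie below every whole-brain point, and sleep-deprived and control points of each extract overlap in all 8 genes.

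The second reference was the supernatant. Against it 11 genes were higher in pull-down (6 cytosolic, 5 mitochondrial) and 20 lower (10 and 10), where 11.2% of all probe sets were higher and 67.4% lower (78.6% in either direction), with a median of -0.85. Quantile normalization left 14 higher and 5 lower, where 27.2% of all probe sets were higher and 27.6% lower, and centring left 3 lower with 17 higher, where 18.8% and 44.1% were. Both comparisons share the pull-down arrays. In both, 8 genes were higher and 18 lower, where 7.46% and 65.8% of all probe sets were, and the 8 are those named against whole brain. Without overlap between pull-down and supernatant, 5 genes were higher and 8 lower, where 6.39% and 32.1% of all probe sets were. Cars, Kars and Sars2 were lower in both comparisons under all 3 scalings, and the share of all probe sets that were was not counted.

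Hars again led, with supernatant values of 8.39, 8.81, 8.89 and 9.01, all below its lowest pull-down value. The difference was 3.47 ± 0.16 (11.1-fold; limma adjusted p = 1.23e-14). Yars2 had supernatant values of 7.28, 7.46, 7.64 and 7.79, a difference of 2.30 ± 0.17 without overlap. Farsb had 7.03, 7.37, 7.62 and 7.65 there and differed by 1.46 ± 0.24, and the extracts no longer overlapped. Iars had 9.13, 9.21, 9.24 and 9.62 in supernatant, so the lowest pull-down array fell inside that range, and differed by 1.22 ± 0.24. Fars2, the mitochondrial phenylalanyl-tRNA synthetase, measured 4.65, 5.08, 5.21 and 5.35 in supernatant and 5.28 to 7.30 in pull-down (median 6.19), a difference of 1.13 ± 0.27. Fars2 and Hars2 lay below the array's own median on every supernatant and whole-brain array. Lars, Nars and Qars, for leucine, asparagine and glutamine, were higher than supernatant by 0.82, 0.67 and 0.98. Against whole brain Lars was lower (-0.47, limma adjusted p = 0.019), and Nars and Qars did not pass.

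The largest differences below supernatant were those of Cars (-2.38 ± 0.27), Kars (-1.99 ± 0.25) and Sars2 (-1.79 ± 0.23). Supernatant values of Cars were 6.95, 7.06, 7.31 and 7.94, and those of Kars were 6.41, 6.45, 6.95 and 7.36, both above every pull-down array. Sars2, which charges mitochondrial serine tRNA, measured 5.60, 5.92, 5.97 and 6.31 in supernatant and 3.60 to 5.33 in pull-down (median 4.03), where it stayed below the array median on all 12 arrays. It also lay below the array median on 3 of 4 supernatant arrays and on every whole-brain array. Eprs, the bifunctional glutamyl-prolyl enzyme, had supernatant values of 8.02, 8.99, 9.44 and 9.55 against 6.01 to 9.08 in pull-down (median 7.21), with overlap and a difference of -1.60 ± 0.36. Sars had 9.49, 9.52, 9.61 and 9.76 and differed by -1.51 ± 0.28, overlapping in its highest pull-down array. Centring ended the calls of Eprs (-0.43, limma adjusted p = 0.402) and Sars (-0.34, limma adjusted p = 0.316). Rars, far below whole brain, was lower than supernatant by -0.62, and that call was lost without supernatant 13, 14 or 15 (limma adjusted p = 0.0634, 0.105 and 0.0648), with differences of -0.62, -0.53 and -0.61. Hars2, higher by 0.55, lost its call without supernatant 13 or 16 (0.47 and 0.46, limma adjusted p = 0.0738 and 0.0748).

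Of the 23 genes with more than 1 probe set, 7 were called in both directions against whole brain. The 8 genes that were higher than whole brain have 11 further probe sets. Of these, 10 were lower and 1 was higher, where 76.3% of all probe sets were lower and 8.06% higher. Iars was the exception: its second probe set, 1426705_s_at, was also higher, by 0.59 ± 0.16 against whole brain and by 1.55 ± 0.20 against supernatant. For Hars, 1438510_a_at was higher by 2.19 while 1417024_at was lower by -0.78 ± 0.18 against whole brain and by -1.39 against supernatant. In group means 1417024_at measured 8.32 and 8.25 in the pull-downs of sleep-deprived and control mice, 9.08 and 9.05 in whole brain, and 9.68 in supernatant.

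The same held for the mitochondrial enzymes. Yars2 was higher by 1.58 on 1439442_x_at and lower by -1.03 on 1430134_a_at. Fars2 was higher by 0.66 on 1439406_x_at and lower by -2.42 on 1431354_a_at, Tars2 was higher by 0.82 on 1436856_x_at and lower by -0.96 on 1431125_a_at, and Hars2 was higher by 0.48 on 1449371_at and lower by -1.45 on 1419158_a_at. Lars2 was higher by 0.81 on 1435682_at and lower by -1.30 and -0.86 on its other probe sets. Farsb, cytosolic, was higher on 1435103_x_at and lower on the other 3, by -0.73 to -2.20. In all, 7 genes were called in both directions against whole brain and 9 against supernatant, where Nars and Qars joined them. 10 genes were lower on every probe set against whole brain, among them Aars (-0.59 and -3.10), Cars, Eprs, Sars (-2.11 and -3.13) and Wars. How many of all genes on the array show these patterns was not counted.

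The count of higher genes changed with the probe set that stands for a gene. In this array design a name ending in _x_at marks probes that can match other transcripts, and _s_at marks probes shared by several transcripts. Of the 8 higher genes, 4 were represented by such an _x_at probe set. Among all probe sets on the array, 35.7% of the _x_at kind and 9.81% of the _at kind lay above 0 in pull-down against whole brain. With the _at and _a_at kinds alone, 4 synthetase genes were higher than whole brain and 6 higher than supernatant. On the array, 2090 of 36082 _at and 483 of 4426 _a_at probe sets were called higher than whole brain. Against supernatant 3113 and 623 were. With the probe set of highest mean over the 12 whole-brain and supernatant arrays, an alternative chosen after seeing the data, 3 and 6 were higher. That alternative favours probe sets that are high in the references. Whether probes of these sets bind other transcripts was not tested.

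**Figure D3:**
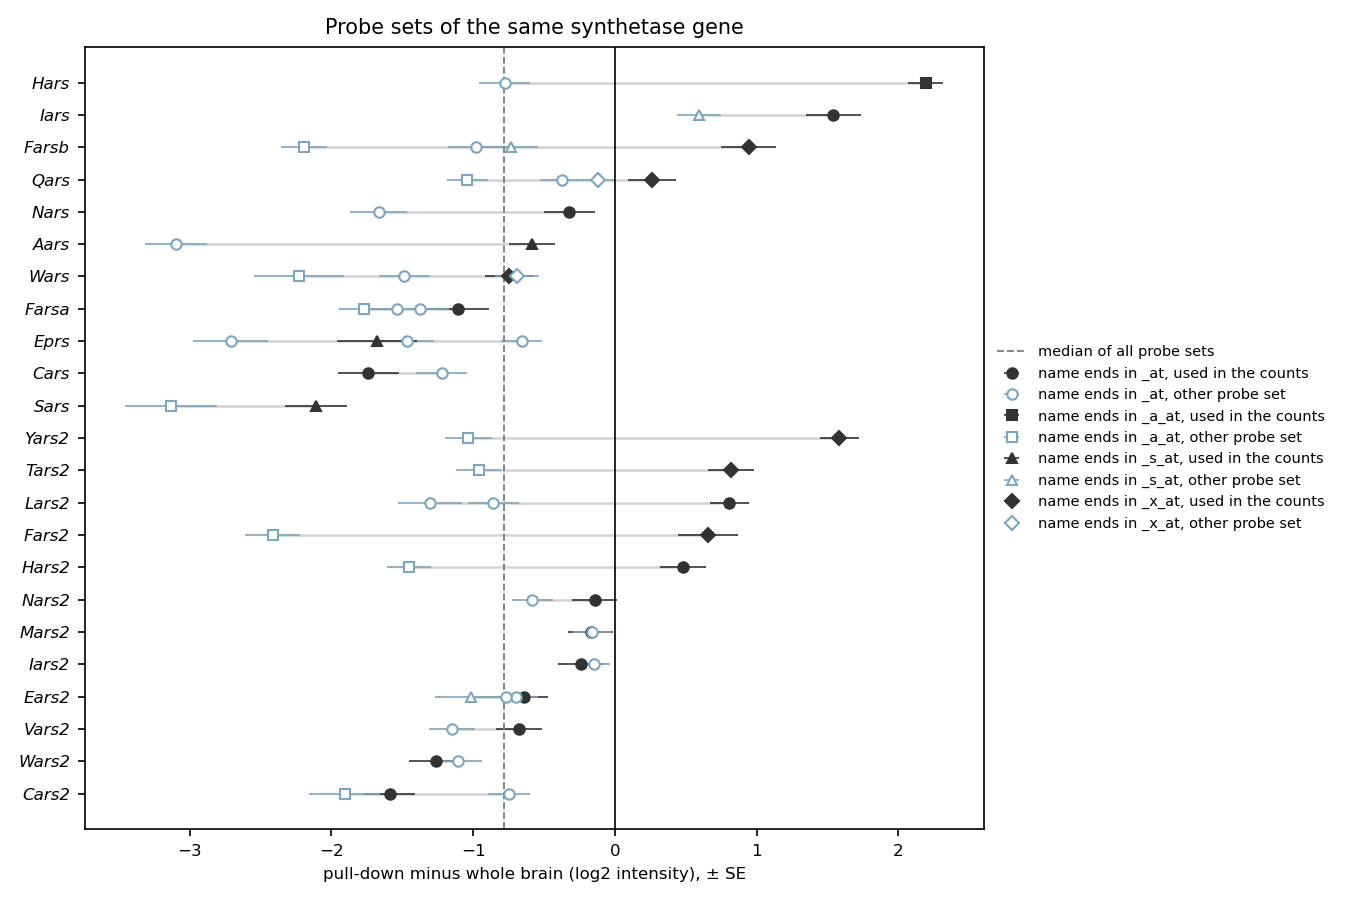
Difference between pull-down and whole brain in log2 intensity (horizontal axis, ± SE, deposited scale) for every probe set of the 23 synthetase genes with more than 1. Dark symbols are the probe sets used in the counts, pale symbols the others, the shape gives the ending of the probe set name, and the dashed line is the median of all probe sets, so a long grey line means that probe sets of 1 gene disagree; in 7 genes, Hars and Yars2 among them, they were called on opposite sides of 0, and Iars alone had all its probe sets higher.

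The references also differed from each other. In whole brain 7 synthetase genes were higher than in supernatant and 0 lower, where 8.89% of all probe sets were higher and 2.01% lower (10.9% in either direction). With limma, 11 genes had an unadjusted p under 0.05, where 22.3% of all probe sets had. Limma with array weights gave 12 genes higher and 3 lower, where 17.5% and 13.3% of all probe sets were. Of the 7, 6 were cytosolic: Rars (1.45 ± 0.28), Lars (1.28 ± 0.24), Hars (1.28 ± 0.17), Gars (1.13 ± 0.18), Nars (0.99 ± 0.24) and Qars (0.72 ± 0.22). The mitochondrial one was Yars2 (0.72 ± 0.18). The first 4 passed under quantile normalization and centring as well, and centring ended the calls of Nars, Qars and Yars2 (limma adjusted p = 0.0632, 0.149 and 0.0852), although their differences were about as large (1.01, 0.74 and 0.73).

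Rars measured 6.48, 6.75, 6.77 and 7.02 in supernatant, below all 8 whole-brain arrays. Lars, the leucyl enzyme of the complex, measured 7.07, 7.15, 7.29 and 7.86 in supernatant and 8.42 to 8.80 in whole brain (median 8.62). Gars measured 7.69, 8.08, 8.18 and 8.38 in supernatant and 8.93 to 9.40 in whole brain (median 9.21), and its pull-down values (7.61 to 8.53, median 8.05) overlapped those of supernatant, with a difference of 0.01 ± 0.17. Nars measured 10.30, 10.39, 10.45 and 10.59 in supernatant and 11.23 to 11.61 in whole brain (median 11.40). None of these genes overlapped between whole brain and supernatant.

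The lowest differences, of Cars (-0.64), Nars2 (-0.43), Vars (-0.39), Iars2 (-0.37) and Farsa (-0.34), did not pass on the deposited scale without weights. With array weights Cars, Nars2 and Vars passed as lower (limma adjusted p = 0.016, 0.00864 and 0.0237). After quantile normalization Cars, Nars2 and Iars2 did (limma adjusted p = 0.0243, 0.0142 and 0.0297). Vars, for valine, had supernatant values of 6.17, 6.18, 6.18 and 6.20, above its 8 whole-brain values of 5.60 to 6.14 (median 5.73), and Nars2, for mitochondrial asparagine, had 7.48, 7.48, 7.52 and 7.71 above 6.83 to 7.23 (median 7.17). Iars2 measured 7.79, 7.86, 7.89 and 7.90 in supernatant and 7.34 to 7.81 in whole brain (median 7.41). Farsa, the alpha subunit of the phenylalanyl enzyme, measured 6.48, 6.84, 6.91 and 7.09 against 6.25 to 6.76 (median 6.55). Over all 35 genes, 9 did not overlap in the higher and 2 in the lower direction, where 12.4% and 8.65% of all probe sets did not. The Qars call was lost without any 1 of 7 arrays, supernatants 13, 14 and 15, sleep-deprived whole brains 18 and 21 and control whole brains 24 and 25, with differences of 0.60 to 0.73 and limma adjusted p from 0.0506 to 0.172. Yars2 lost its call without supernatant 16 (0.63, limma adjusted p = 0.0572). On another probe set Yars2 did not differ in the test (0.00, limma adjusted p = 0.997), while Iars (0.95) and Hars2 (0.98) passed on probe sets not used in the counts.

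Sleep deprivation was then compared with rest within each extract. In whole brain no synthetase gene passed: 0 of 35 did, with limma, where 0.0355% of all probe sets were higher and 0.0111% lower (0.0466% in either direction), and 0 of 35 had an unadjusted p under 0.05, where 10.9% of all probe sets had. The lowest unadjusted p was that of Cars (limma, 0.0501; adjusted p = 0.457). Of 19 cytosolic genes 7 lay above 0, with a median of -0.02, and of 16 mitochondrial genes 4 did, with a median of -0.06, where 33.3% of all probe sets lay above 0 and their median was -0.07. Centring put 13 and 12 above 0 and quantile normalization 8 and 10, so the side of 0 on which most genes fell depended on the scaling. The 95% confidence intervals reached 0.22 to 0.41 to either side of the estimate, the widest being that of Lars2, and over the 35 genes they spanned -0.68 to 0.52.

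Cars measured 6.24, 6.54, 6.60 and 6.69 after sleep deprivation and 6.56, 6.67, 6.96 and 7.16 in controls. Each sleep-deprived value was under the mean of the controls, the ranges overlapped, and the difference was -0.32 (95% confidence interval -0.64 to 0.00). Wars2, for mitochondrial tryptophan, measured 4.61, 4.87, 5.00 and 5.27 against 5.09, 5.11, 5.32 and 5.43, a difference of -0.30 (-0.61 to 0.01). Lars2 measured 7.82, 7.88, 8.01 and 8.18 against 7.64, 8.17, 8.47 and 8.71, a difference of -0.27 (-0.68 to 0.14), with the lowest value of all in a control. Hars measured 9.91, 10.17, 10.24 and 10.29 against 9.77, 9.95, 9.95 and 10.13, a difference of 0.20 (-0.06 to 0.47). Iars measured 8.76, 8.86, 9.29 and 9.40 against 8.75, 8.79, 8.96 and 9.004, a difference of 0.20 (-0.12 to 0.52). Sleep-deprived and control ranges overlapped in each.

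Vars2, for mitochondrial valine, measured 6.46, 6.63, 6.79 and 6.86 against 6.78, 6.78, 6.83 and 7.12, a difference of -0.19 (-0.46 to 0.08). Rars measured 7.88, 7.94, 8.21 and 8.45 against 7.90, 8.24, 8.48 and 8.55, a difference of -0.17 (-0.52 to 0.18). Lars measured 8.42, 8.53, 8.59 and 8.64 against 8.61, 8.64, 8.78 and 8.80, with each sleep-deprived value under the mean of the controls and a difference of -0.17 (-0.39 to 0.06). These 3 genes had overlapping ranges too. Mars2, for mitochondrial methionine, measured 3.56, 3.61, 3.83 and 3.84 against 3.53, 3.88, 3.92 and 4.16, a difference of -0.16 (-0.46 to 0.14), on a probe set below the array median on every array of the study. Vars measured 5.60, 5.61, 5.65 and 6.05 against 5.72, 5.74, 5.84 and 6.14, a difference of -0.13 (-0.43 to 0.16). Over all 72 probe sets of the 35 genes, 5 had an unadjusted p under 0.05, a smaller share than the 10.9% of all probe sets on the array, and 0 passed the adjustment. The lowest belonged to a second probe set of Farsa, 1445003_at, with a difference of -0.60 (limma, unadjusted p = 0.000494, adjusted p = 0.186). For 35 genes no pair of groups failed to overlap, where 1.75% of all probe sets were higher and 4.25% lower without overlap.

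In pull-down, too, 0 of 35 passed with limma. No probe set on the array did (0% higher, 0% lower), and 0 of 35 had an unadjusted p under 0.05, the lowest being 0.219 for Yars2, where 0.955% of all probe sets had. Of 19 cytosolic genes 16 lay above 0, with a median of 0.18, and of 16 mitochondrial genes 6 did, with a median of -0.06, where 39.5% of all probe sets lay above 0 and their median was -0.05. Relative to that median, 17 cytosolic and 7 mitochondrial genes lay higher. Quantile normalization put 15 cytosolic and 8 mitochondrial genes above 0, with 50.7% of all probe sets, and centring put 17 and 11 above 0, with 64% of all probe sets, so the side of 0 on which most mitochondrial genes fell changed with the scaling. These genes are measured on the same arrays, so their common direction is a description of 12 arrays and has no test. Without sleep-deprived pull-down 1, 12 of 19 cytosolic genes lay above 0 with a median of 0.05, and without the 2 pull-down arrays with the most 18S signal 13 did, with a median of 0.16. Intervals reached 0.44 to 0.89 to either side, and those of 3 genes (Eprs, Farsa and Sars) reached a difference of 1 in size, which is 2-fold.

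Eprs ran from 6.67 to 9.08 after sleep deprivation (median 7.42) and from 6.01 to 8.61 in controls (median 7.11). The difference was 0.39, with a 95% confidence interval of -0.50 to 1.29 and 3 of 6 sleep-deprived arrays above the control mean. Rars ran from 5.97 to 6.99 (median 6.08) against 4.80 to 6.84 (median 5.92), a difference of 0.32 (-0.36 to 1.00), with 5 of 6 above. Farsa ran from 4.72 to 5.98 (median 5.07) against 4.42 to 6.76 (median 5.43), a difference of -0.32 (-1.06 to 0.42). In all 3 genes the range of one group covered much of that of the other.

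Among further cytosolic genes, Mars1, the methionyl enzyme of the complex, ran from 8.73 to 9.86 (median 9.50) against 8.19 to 9.49 (median 9.31), a difference of 0.28 (-0.31 to 0.88). Iars ran from 10.11 to 10.96 (median 10.87) against 9.15 to 11.09 (median 10.61), a difference of 0.25 (-0.40 to 0.90). Wars, for tryptophan, ran from 5.82 to 7.40 (median 6.20) against 5.83 to 6.50 (median 6.11), a difference of 0.25 (-0.32 to 0.82). Each of the 3 had 4 of 6 sleep-deprived arrays above the control mean.

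Among mitochondrial genes, Fars2 ran from 5.34 to 6.78 (median 6.01) against 5.28 to 7.30 (median 6.44), a difference of -0.31 (-0.995 to 0.38). Yars2 ran from 9.77 to 10.25 (median 9.95) against 9.06 to 10.09 (median 9.70), and all 6 sleep-deprived values exceeded the mean of the controls, with a difference of 0.30 (-0.19 to 0.79). Rars2, for mitochondrial arginine, ran from 6.25 to 7.75 (median 6.45) against 6.38 to 7.45 (median 6.89), a difference of -0.28 (-0.90 to 0.33). Cars2, for mitochondrial cysteine, ran from 5.56 to 6.83 (median 6.12) against 5.41 to 6.58 (median 5.76), a difference of 0.27 (-0.32 to 0.87). The groups overlapped in all 35 genes, where 0.04% of all probe sets were higher and 0.0178% lower without overlap.

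**Figure D4:**
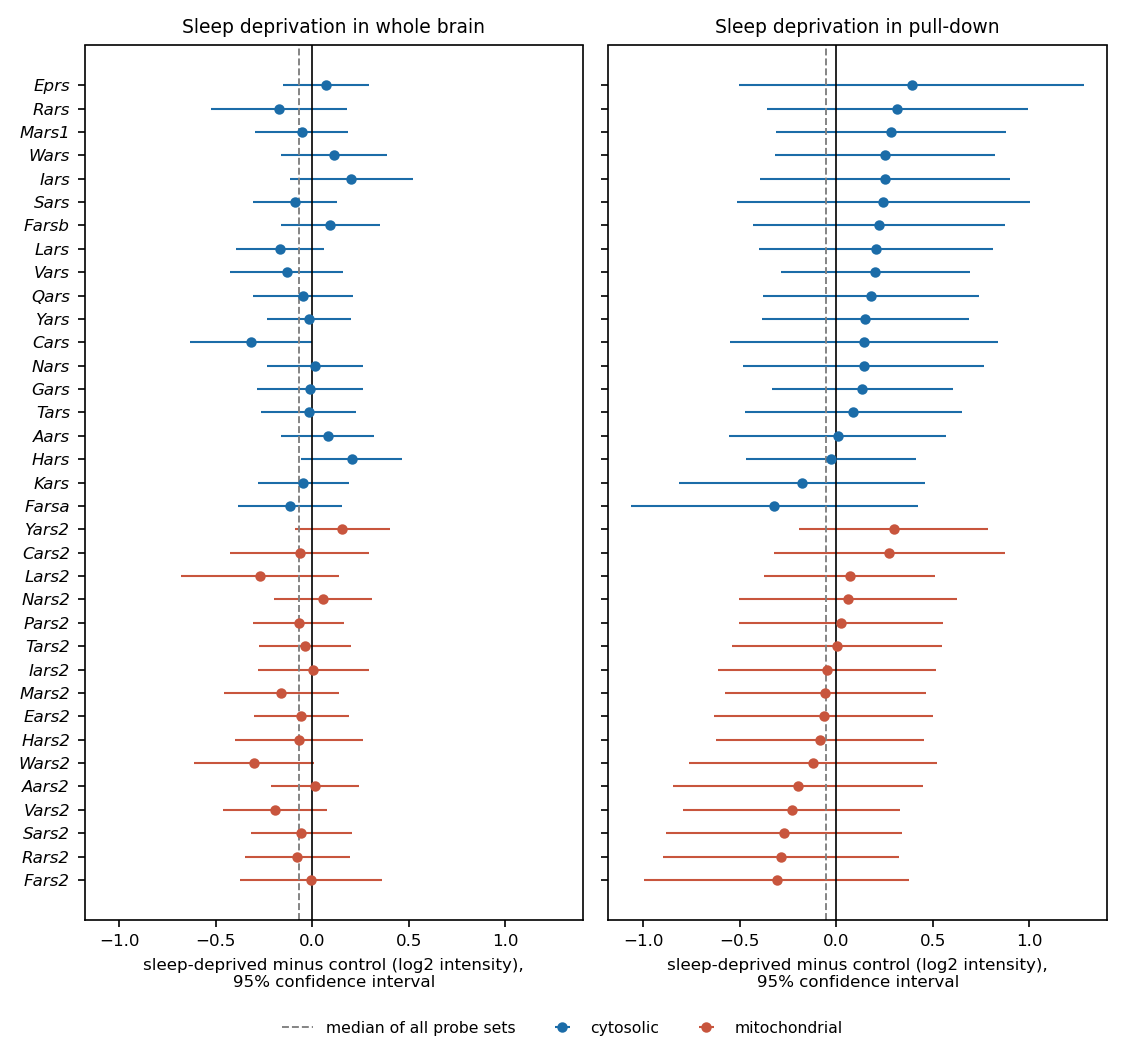
Difference between sleep-deprived and control arrays in log2 intensity (horizontal axis, with 95% confidence intervals, deposited scale) of the 35 synthetase genes in whole brain (left) and in pull-down (right), with cytosolic genes in blue, mitochondrial genes in red and the median of all probe sets dashed. All 35 intervals of each extract include or touch 0, and in pull-down 16 of 19 cytosolic points lie to the right of 0, a count that becomes 12 without sleep-deprived pull-down 1.

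The difference between the sleep deprivation effects of both extracts was tested as an interaction. With limma 0 of 35 genes passed, 0 had an unadjusted p under 0.05, and of all probe sets 0% passed and 0.338% had an unadjusted p under 0.05. The effect in pull-down exceeded that in whole brain in 15 of 19 cytosolic genes (median 0.15) and in 8 of 16 mitochondrial genes (median 0.00), where 54.9% of all probe sets did so and their median was 0.03. Without sleep-deprived pull-down 1, the cytosolic count was 12 with a median of 0.03. The interactions largest in size were those of Rars (0.49, 95% confidence interval -0.41 to 1.39), Cars (0.46, -0.45 to 1.37), Lars (0.37, -0.39 to 1.13), Cars2 (0.34, -0.45 to 1.13) and Lars2 (0.34, -0.26 to 0.94). The 5 genes with the ATF4 element had differences after sleep deprivation of 0.08 (Aars), -0.01 (Gars), 0.20 (Iars), -0.02 (Tars) and -0.02 (Yars) in whole brain and of 0.01, 0.14, 0.25, 0.09 and 0.15 in pull-down, none of which passed.

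The genes around the synthetases were followed through fixed lists. After sleep deprivation no gene of the 6 lists passed in either extract. In whole brain the largest differences were those of Slc38a2 (0.58, limma adjusted p = 0.0763), a neutral amino acid transporter induced by ATF4, of Eef1e1 (0.44, limma adjusted p = 0.336), a scaffold of the complex, and of Ddit4 (0.45, limma adjusted p = 0.335), an inhibitor of mTORC1 signalling. Of 25 measured ATF4-induced genes 9 lay above 0 in whole brain and 14 in pull-down. Of 11 eIF2 kinases and regulators of the same response, 4 and 8 did. Over all probe sets, 33.3% lay above 0 in whole brain and 39.5% in pull-down. The list counts were taken only on the deposited scale with all arrays. In pull-down the largest differences in size over the 6 lists were those of Eif2ak2 (-0.58), Vldlr (-0.51), Polr3b (-0.47), Dtd1 (0.41) and Gfm1 (0.41).

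Between pull-down and whole brain the lists moved in both directions. Among 7 partners of the synthetases 6 were lower, including the scaffolds Aimp1 (-2.15), Aimp2 (-1.66) and Eef1e1 (-0.76), and Dtd2, which removes wrongly loaded D-amino acids from tRNA, was higher (0.75). Of 12 mitochondrial partners 9 were lower, with the elongation factor Gfm2 lowest (-1.66), and Qrsl1, which makes mitochondrial glutaminyl-tRNA, was higher (0.99). Of 8 cytosolic elongation factors 4 were lower (Eef1a2, -2.92) and 1 higher (Eef1d, 0.91). Of 23 genes of tRNA transcription and maturation 15 were lower and 4 higher, with the RNA polymerase III subunits Polr3b (-1.63) and Polr3a (0.91) at the ends.

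The regulators of the amino acid response included the 2 higher genes Cebpb (2.75 ± 0.20) and Atf4 (1.26 ± 0.16) and 7 lower ones, with Atf5 lowest (-1.98), of 11. Among 25 ATF4-induced genes 6 were higher, including the asparagine synthetase Asns (1.36 ± 0.13) and the arginine transporter Slc7a1 (1.24 ± 0.18), and 15 lower, with the glycine transporter Slc6a9 lowest (-2.07). The synthetase genes, at 8 higher and 22 lower of 35, and all these lists are to be read against the 8.06% and 76.3% of all probe sets. As for the synthetases, directions of single genes near the median of all probe sets follow the scaling, and each of these genes was read from 1 probe set.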

How the data were processed

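Log2 intensities of 24 arrays were used as the authors deposited them. Per the submitters' processing notes they were made with affy and RMA; versions, and whether all extracts were normalized together, are not given in the sources used here. Of 45101 probe sets, 64 controls were left out. The array annotation of 2016 gave 1 gene for 34945 probe sets, several for 932 and none for 9160. In R 4.3.3, limma 3.58.1 (lmFit, eBayes, two-sided, Benjamini-Hochberg over 45037 probe sets, threshold 0.05) was fitted for 6 comparisons: sleep deprivation within each extract on that extract's arrays, the interaction on both, and the extract comparisons on all 24 arrays with 5 groups, sleep states weighted equally. Scripts were tested on simulated data. No array pair was identical (highest correlation 0.991). Precision is limited by the number of arrays. Members and lists were chosen with earlier results of these data known. Values per array are given for the 6 cytosolic and 4 mitochondrial genes with the largest sleep deprivation difference, as none passed, and for the 5 highest and 5 lowest in each extract comparison. Alternatives were quantile normalization, median centring, array weights, an intensity trend, a filter on low values, _at and _a_at probe sets, 1 fit of all arrays, and leaving out each array. Choosing probe sets on the reference arrays, and leaving out the 2 pull-down arrays with most 18S, were added after seeing the data. The promoter element was chosen as the ATF4 and C/EBP composite element.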

Additional observations from a re-analysis of the deposited data

Results flagged for a closer look

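Among 175 groups of a gene and an extract state, 14 had a single array whose gap to the next value was a large share of the group's range; chance gives about 1 in 20, and no cause was tested. In pull-down after sleep deprivation, array 1 was highest for Cars (6.36, next 5.21), Kars (5.99, next 4.85) and Rars2 (7.75, next 6.54), and array 3 was lowest for Mars2 (2.76, next 3.62). In pull-down controls, array 3 was highest for Sars (9.02, next 7.91) and Lars2 (9.24, next 8.86). Sleep-deprived pull-down 1 and control pull-down 3 also had the most 18S signal of the pull-down arrays, 11 and 11.1. In whole brain after sleep deprivation, array 18 was highest for Aars (9.08, next 8.77) and Iars2 (7.81, next 7.42), array 21 for Nars (11.61, next 11.38) and Qars (9.39, next 9.09), array 19 for Tars (8.17, next 7.92) and array 20 for Vars (6.05, next 5.65). Control whole brain 22 was highest for Vars2 (7.12, next 6.83), and supernatant 16 for Nars2 (7.72, next 7.52).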

How the results depend on the processing

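Directions between extracts changed with the scaling of arrays and the choice of probe set; the cause was not tested. Against whole brain, quantile normalization (15 higher, 11 lower) turned Farsa (0.14), Lars (0.10), Vars (0.22), Wars (0.31), Aars2 (0.28), Ears2 (0.55), Iars2 (0.63), Mars2 (0.52), Nars2 (0.82), Pars2 (0.17), Rars2 (0.16) and Vars2 (0.46) positive. Centring (21 higher, 7 lower) gave Aars 0.57, Farsa 0.047, Gars 0.033, Lars 0.69, Mars1 0.66, Nars 0.84, Tars 0.13, Vars 0.28, Wars 0.41, Aars2 0.23, Ears2 0.52, Iars2 0.91, Mars2 0.98, Nars2 1.01, Pars2 0.26, Rars2 0.36 and Vars2 0.48. The _at and _a_at probe sets (4 higher) gave Farsb -0.98, Qars -1.04, Fars2 -2.42, Tars2 -0.96 and Yars2 -1.03, and probe sets chosen on the reference arrays (3 higher) gave Farsb -0.98, Fars2 -2.42, Hars2 -1.45, Lars2 -1.30 and Tars2 -0.96.

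Against supernatant, quantile normalization (5 lower) gave Rars 0.38, Wars 0.89, Ears2 0.44, Iars2 0.10, Nars2 0.26, Pars2 0.17, Rars2 0.011 and Vars2 0.12. Centring (17 higher, 3 lower) gave Aars 0.55, Mars1 0.90, Rars 0.56, Tars 0.26, Wars 1.00, Cars2 0.047, Ears2 0.42, Iars2 0.57, Mars2 0.92, Nars2 0.60, Pars2 0.24, Rars2 0.33, Vars2 0.21 and Wars2 0.16. The _at and _a_at probe sets (6 higher) gave Farsb -1.64, Qars -0.63, Fars2 -2.37, Tars2 -1.16 and Yars2 -1.03, and those of the reference arrays (6 higher) Farsb -1.64, Fars2 -2.37, Hars2 -0.47, Lars2 -1.98 and Tars2 -1.16. Between whole brain and supernatant, quantile normalization gave 4 lower, centring 4 higher, and array weights 12 higher and 3 lower. For that comparison, shares of all probe sets called under quantile normalization and centring were not counted.

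Leaving out 1 array gave 8 to 9 higher and 22 to 23 lower against whole brain, 10 to 11 and 19 to 20 against supernatant, and 6 to 8 and 0 between the references. A filter on low values kept 30 of the 35 genes, with 8 higher and 18 lower against whole brain. The shares of all probe sets called with 1 array left out or under the filter were not counted. The intensity trend changed no synthetase call. All alternatives run gave 0 calls for sleep deprivation. No paired analysis was possible because the compared groups share fewer than 2 replicate numbers.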
